A study of Homo sapiens with 12 samples.

Results

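Transcript levels of cells depleted of TRIP12 were compared directly with those of cells depleted of OTUD5. The cells are HT1080, an established human fibrosarcoma line. The comparison takes 6 of the 12 libraries of the series, chosen by their labels: 3 in which TRIP12 siRNA had been transfected (siTRIP12) and 3 in which OTUD5 siRNA had been transfected (siOTUD5). The other 6 libraries, 3 with both siRNAs (siTRIP12+siOTUD5) and 3 with scrambled siRNA (Scrambled), entered the fit and give the level beside which each gene can be placed. Every group is a transient siRNA transfection of the same line, with no other agent named. The siRNA sequences, their amounts and the time of harvest are not given in the labels, nor whether replicates were separate cultures, so p-values measure the spread between these libraries. The design text names HT1080 alone, although the number in the cell line label grows along the sample list.

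TRIP12 is a HECT-domain ubiquitin ligase, an enzyme that attaches ubiquitin chains to proteins and so marks many of them for the proteasome. OTUD5 is a deubiquitylase of the OTU family and removes such chains. The series title speaks of substrates that a combined ubiquitin code degrades and that deubiquitylation protects, so the comparison sets loss of a ligase against loss of an enzyme with the opposite activity. Among the pathways under ubiquitin control, NF-kB signalling is one of the best known: ubiquitin chains assemble the kinase complexes below TNF receptors, and degradation of the inhibitor IkB-alpha releases the transcription factor.

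Libraries held 37912312 to 43881471 reads, and 16283 of the 46427 genes listed passed the filter on low counts. Levels are given as CPM, read counts scaled to the size of each library, and differences as fitted log2 fold changes of siTRIP12 over siOTUD5 with their standard error (SE). A gene was called when its adjusted p in the edgeR quasi-likelihood test was under 0.05. Of the genes tested, 4848 (29.8%) were called, 2262 (13.9%) higher and 2586 (15.9%) lower in siTRIP12. Most differences were small: the median size of a called change was 0.37 on the log2 scale, and 473 genes (2.90%) were called with more than 2-fold, 270 of them (1.66%) higher and 203 (1.25%) lower. The median of all genes tested was 0.01. Set against Scrambled in the same fit, siTRIP12 had 31.9% of genes called (14.5% higher and 17.4% lower) and siOTUD5 had 23.2% (11.4% higher and 11.9% lower). On the first principal component, which held 34.2% of the variance, the siTRIP12 libraries lay at 19.1 to 22.6, the siOTUD5 libraries at -9.03 to -7.97, the siTRIP12+siOTUD5 libraries at 8.25 to 11.1 and the Scrambled libraries at -23.7 to -19.9.

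Each siRNA lowered its own target. TRIP12 (NCBI gene 9320, GRCh38 chromosome 2, 229763837 to 229923186) was at 38.9, 46.2 and 40.2 CPM in siTRIP12, against 314, 315 and 317 CPM in siOTUD5. The level was 13.3% of that in siOTUD5 (log2 -2.92 ± 0.08, adjusted p = 4.3e-13). The OTUD5 transcript (gene 55593, chromosome X, 48922024 to 48958381) was at 73.5, 73.9 and 74.0 CPM in siTRIP12, against 10.6, 10.8 and 12 CPM in siOTUD5 (log2 2.73 ± 0.08, adjusted p = 2.8e-13). The siOTUD5 level was thus 15.1% of the siTRIP12 level. It was 18.6% of the Scrambled level, since OTUD5 in siTRIP12 was itself called higher than in Scrambled (log2 0.30 ± 0.07). The groups did not overlap for either gene, as for 47.0% of all genes tested, and the exact two-sided permutation p was 0.1 for each, the smallest that 3 against 3 libraries allow. With both siRNAs, TRIP12 lay at 50.1 to 55.0 CPM and OTUD5 at 9.62 to 12.3 CPM. The Scrambled libraries held 276 to 346 CPM of TRIP12 and 58.5 to 60.5 CPM of OTUD5.

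Secreted and keratin-associated genes led the rises. ESM1, a secreted proteoglycan also known as endocan (gene 11082, chromosome 5, 54977867 to 54985593), had 17.1, 13.2 and 13.7 CPM in siTRIP12, against 0.850, 0.727 and 0.853 CPM in siOTUD5. This difference (log2 4.17 ± 0.17, adjusted p = 1.6e-11) was the largest among the genes that the naming rule takes. The siTRIP12+siOTUD5 libraries had 2.17 to 2.87 CPM, between the groups, and the Scrambled libraries 0.333 to 0.396 CPM. KYNU, the kynureninase of tryptophan breakdown (gene 8942, chromosome 2, 142877664 to 143055833), had 2.63, 2.74 and 2.70 CPM in siTRIP12 and 0.638, 0.519 and 0.609 CPM in siOTUD5 (log2 2.18 ± 0.26, adjusted p = 6.9e-06). With both siRNAs it was at 0.844 to 0.957 CPM, close to the siOTUD5 libraries.

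Next came 4 genes of 1 cluster on chromosome 17 that encode keratin-associated proteins of the hair shaft. KRTAP2-3 (gene 730755, chromosome 17, 41059240 to 41060114) had 40, 43.5 and 50.2 CPM in siTRIP12, against 5.79, 5.92 and 4.58 CPM in siOTUD5 (log2 3.04 ± 0.14, adjusted p = 2.9e-10). KRTAP2-4, KRTAP2-2 and KRTAP2-1 differed by 3.11 ± 0.29, 3.02 ± 0.26 and 2.88 ± 0.21 on the log2 scale. No library of one group overlapped the other in any of the 4, as the naming rule requires. These near-identical genes can share reads, and their separate values are uncertain. All 4 were also called higher in siOTUD5 than in Scrambled, with log2 fold changes of 1.14 to 1.47, so the siOTUD5 level was itself above the Scrambled level. Among the nearest genes tested on that chromosome, the keratin genes KRT34 (log2 1.21 ± 0.39, adjusted p = 0.0259) and KRT15 (0.89 ± 0.09, adjusted p = 1.4e-06) were called higher in siTRIP12 too, as was KRT10 (0.51 ± 0.17, adjusted p = 0.0371), while TMEM99 was called lower (-0.30 ± 0.11, adjusted p = 0.0445).

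TOMM22 stood apart from these genes in where the difference arose. It encodes a receptor of the TOM complex, through which proteins enter mitochondria (gene 56993, chromosome 22, 38681957 to 38685421). It was at 105, 102 and 111 CPM in siTRIP12, against 22.9, 22.8 and 24.5 CPM in siOTUD5 (log2 2.18 ± 0.07, adjusted p = 8.9e-13). The siTRIP12 libraries lay within the Scrambled range of 101 to 122 CPM, and both groups that received OTUD5 siRNA were low, at 32.5 to 33.9 CPM with both siRNAs. The longest annotated 3′ UTR of TOMM22 holds the 7-base sequence GTTTGAA 2 times. In earlier results of these data the presence of that sequence went with lower levels in siOTUD5, and its part in the TOMM22 difference was not tested.

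MMP3, or stromelysin-1, a secreted protease of the extracellular matrix (gene 4314, chromosome 11, 102835801 to 102843609), had 48.8, 46.0 and 45.5 CPM in siTRIP12, against 13, 12.2 and 12.2 CPM in siOTUD5 (log2 1.91 ± 0.12, adjusted p = 4.5e-09). Its neighbour MMP1, an interstitial collagenase, had 9.22, 8.20 and 8.14 CPM in siTRIP12, against 2.86, 3.48 and 3.80 CPM in siOTUD5 (log2 1.33 ± 0.14, adjusted p = 9.4e-07). H2AC6, which encodes a histone H2A protein (gene 8334, chromosome 6, 26124172 to 26124690), had 23.9, 22.9 and 20.1 CPM in siTRIP12, against 6.78, 6.20 and 7.09 CPM in siOTUD5 (log2 1.74 ± 0.09, adjusted p = 3.5e-10). For H2AC6 the groups moved to opposite sides of Scrambled: siTRIP12 was called higher than Scrambled (log2 1.02) and siOTUD5 lower (log2 -0.72). MAP3K7CL (log2 1.62 ± 0.16) and ZNF582, a zinc-finger gene (1.55 ± 0.18), complete the 12 largest rises, of which OTUD5 itself is 1.

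**Figure D1:**
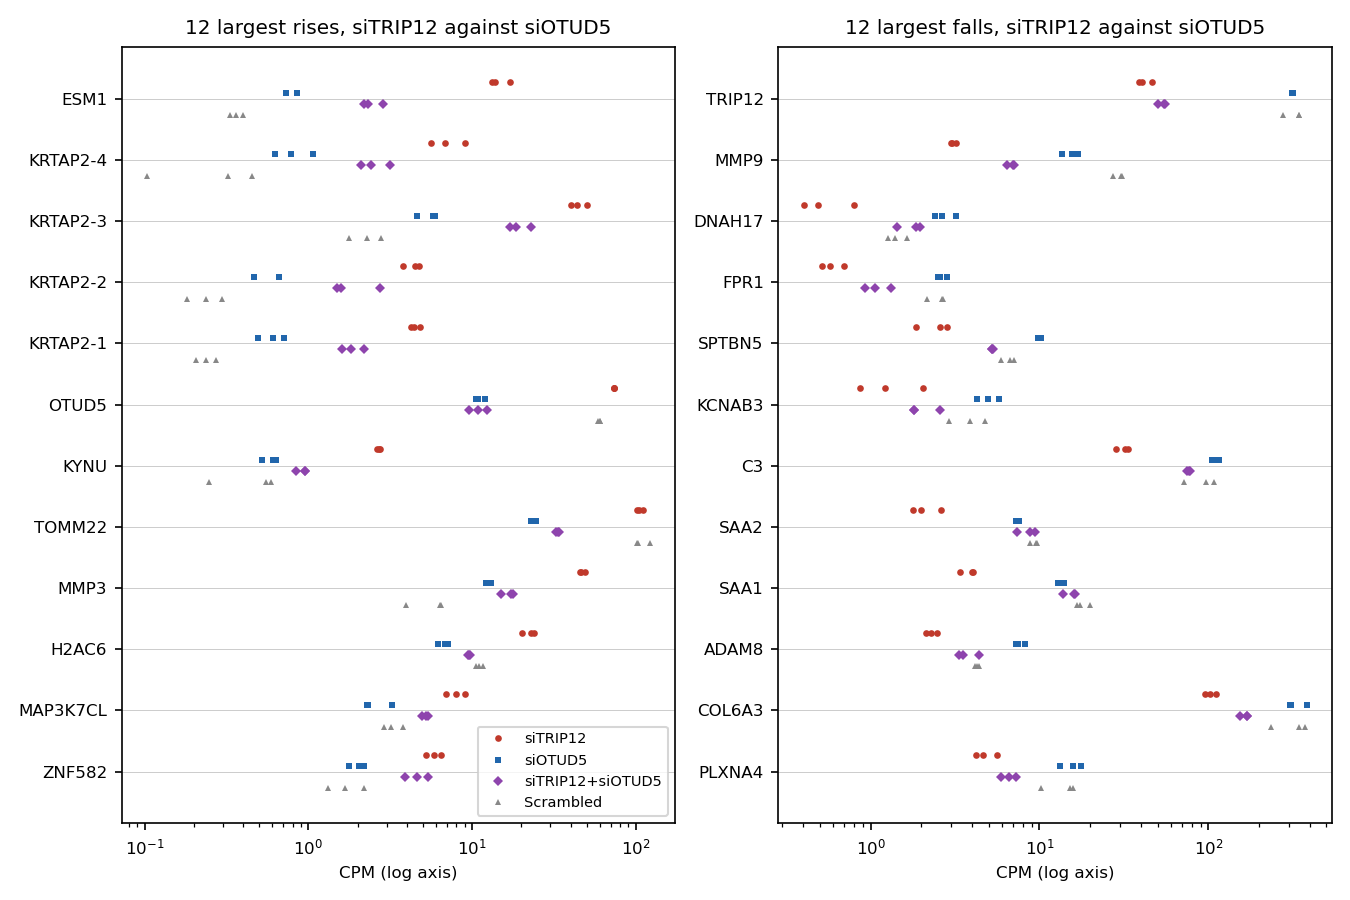
CPM on a log axis in each of the 12 libraries for the 12 largest rises (left) and the 12 largest falls (right) of siTRIP12 against siOTUD5, 1 point per library. The naming rule takes only genes whose siTRIP12 and siOTUD5 libraries do not overlap, so these points are apart in every row. TOMM22 has its siTRIP12 points beside Scrambled while MMP9 has all 4 groups at separate levels.

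MMP9, or gelatinase B, led the falls after TRIP12 itself (gene 4318, chromosome 20, 46008908 to 46016561). It had 3.21, 3.02 and 2.99 CPM in siTRIP12, against 16.8, 13.5 and 15.5 CPM in siOTUD5 (log2 -2.31 ± 0.10, adjusted p = 7.4e-11). Both knockdowns were below the Scrambled range of 27.4 to 30.8 CPM, and siTRIP12+siOTUD5 lay between them at 6.39 to 7.10 CPM. MMP9 and MMP3 thus differed in opposite directions between the same libraries.

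Acute-phase and complement genes, receptors at the cell surface and large structural proteins filled most of the other falls. Complement component C3 (gene 718, chromosome 19, 6677704 to 6720650) had 33.4, 32.2 and 28.4 CPM in siTRIP12, against 116, 113 and 105 CPM in siOTUD5 (log2 -1.83 ± 0.12, adjusted p = 1.3e-07). The serum amyloid genes SAA1 and SAA2, acute-phase proteins of the same locus on chromosome 11, differed by -1.80 ± 0.11 and -1.81 ± 0.14. SAA1 had 4.05, 3.36 and 3.99 CPM in siTRIP12, against 12.9, 12.9 and 13.9 CPM in siOTUD5, and 13.7 to 16.2 CPM with both siRNAs. The SAA pair is close in sequence, so reads may be split between its genes.

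FPR1, a receptor for formylated peptides, had 0.691, 0.571 and 0.515 CPM in siTRIP12, against 2.83, 2.52 and 2.56 CPM in siOTUD5 (log2 -2.14 ± 0.22, adjusted p = 8.6e-07). Its neighbour and paralog FPR2 was also called lower (log2 -1.60 ± 0.50, adjusted p = 0.0211). ADAM8, a membrane-bound metalloproteinase, was at 2.14 to 2.47 CPM in siTRIP12, against 7.26 to 8.24 CPM in siOTUD5 (log2 -1.74 ± 0.14). PLXNA4, a semaphorin co-receptor, differed by -1.68 ± 0.16 and KCNAB3, a potassium channel subunit, by -1.86 ± 0.26. COL6A3, a chain of type VI collagen (gene 1293, chromosome 2, 237324018 to 237414164), had 102, 95.6 and 111 CPM in siTRIP12, against 383, 305 and 307 CPM in siOTUD5 (log2 -1.69 ± 0.16, adjusted p = 2.9e-05). DNAH17, an axonemal dynein heavy chain, and SPTBN5, a beta-spectrin, were below Scrambled in siTRIP12 (log2 -1.34 and -1.43) and above it in siOTUD5 (log2 0.94 and 0.60). In the direct comparison these opposite differences gave -2.28 ± 0.26 for DNAH17 and -2.03 ± 0.14 for SPTBN5.

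Levels with both siRNAs separated the named genes further. SAA1 and SAA2 with both siRNAs lay at or near the siOTUD5 level, at 13.7 to 16.2 CPM and 7.38 to 9.41 CPM. PLXNA4 (5.94 to 7.23 CPM), FPR1 (0.932 to 1.32 CPM) and COL6A3 (155 to 170 CPM) lay nearer to their siTRIP12 level of 4.23 to 5.64, 0.515 to 0.691 and 95.6 to 111 CPM. C3, at 75.1 to 77.4 CPM, was between the groups. The Scrambled libraries had 96.2, 108 and 71.7 CPM of C3, so only Scrambled replicate 3 was below the level with both siRNAs. No test was made on these levels.

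Genes that NF-kB induces were the list with the largest share of members called. Of 28 ligands and effectors listed, 19 had enough reads to be tested, and 15 of these were lower and 1 higher in siTRIP12. That is 84.2% called, against 29.8% of all genes, with a median log2 fold change of -0.86. The lists were drawn up with earlier results of these data known, so their direction is a description. IL11, a cytokine of the IL-6 family, had 45.0, 43.3 and 50.5 CPM in siTRIP12, against 131, 120 and 119 CPM in siOTUD5 (log2 -1.42 ± 0.07, adjusted p = 2.0e-10). IL32, a proinflammatory cytokine, had 10.2, 9.48 and 10.7 CPM in siTRIP12, against 30.6, 32.1 and 25 CPM in siOTUD5 (log2 -1.53 ± 0.10, adjusted p = 6.0e-09). BIRC3, the ubiquitin ligase cIAP2 of the TNF receptor complex, was at 2.47 to 2.83 CPM in siTRIP12, against 6.42 to 8.80 CPM in siOTUD5 (log2 -1.57 ± 0.14). CCND1, which encodes cyclin D1, was at 256 to 274 CPM in siTRIP12, against 524 to 551 CPM in siOTUD5 (log2 -1.01 ± 0.06, adjusted p = 5.7e-10).

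The interleukin-1 genes shared the direction and differed in their relation to Scrambled. IL1B had 26.6, 28.0 and 38.4 CPM in siTRIP12, against 58.4, 48.4 and 58.4 CPM in siOTUD5 (log2 -0.83 ± 0.12, adjusted p = 1.4e-04). Both groups were above the Scrambled range of 18 to 20.6 CPM. IL1A differed by -0.86 ± 0.12 and was called against Scrambled in siOTUD5 (log2 1.00), while its siTRIP12 value against Scrambled was 0.14 and not called. IL32, SAA1 and BIRC3, in contrast, were far below Scrambled in siTRIP12 (log2 -1.81, -2.25 and -1.56), with siOTUD5 values of -0.29, -0.44 and 0.01. CXCL8, the neutrophil chemokine interleukin-8, was the 1 member called higher, at 9.76, 13.2 and 14.6 CPM in siTRIP12, against 8.43, 7.32 and 6.73 CPM in siOTUD5 (log2 0.74 ± 0.15, adjusted p = 0.00136). CCL20, a chemokine for dendritic cells and lymphocytes, had under 0.3 CPM in each siTRIP12 library, against 0.756 to 1.80 CPM in siOTUD5. SOD2, CXCL3 and PTGS2 were not called.

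**Figure D2:**
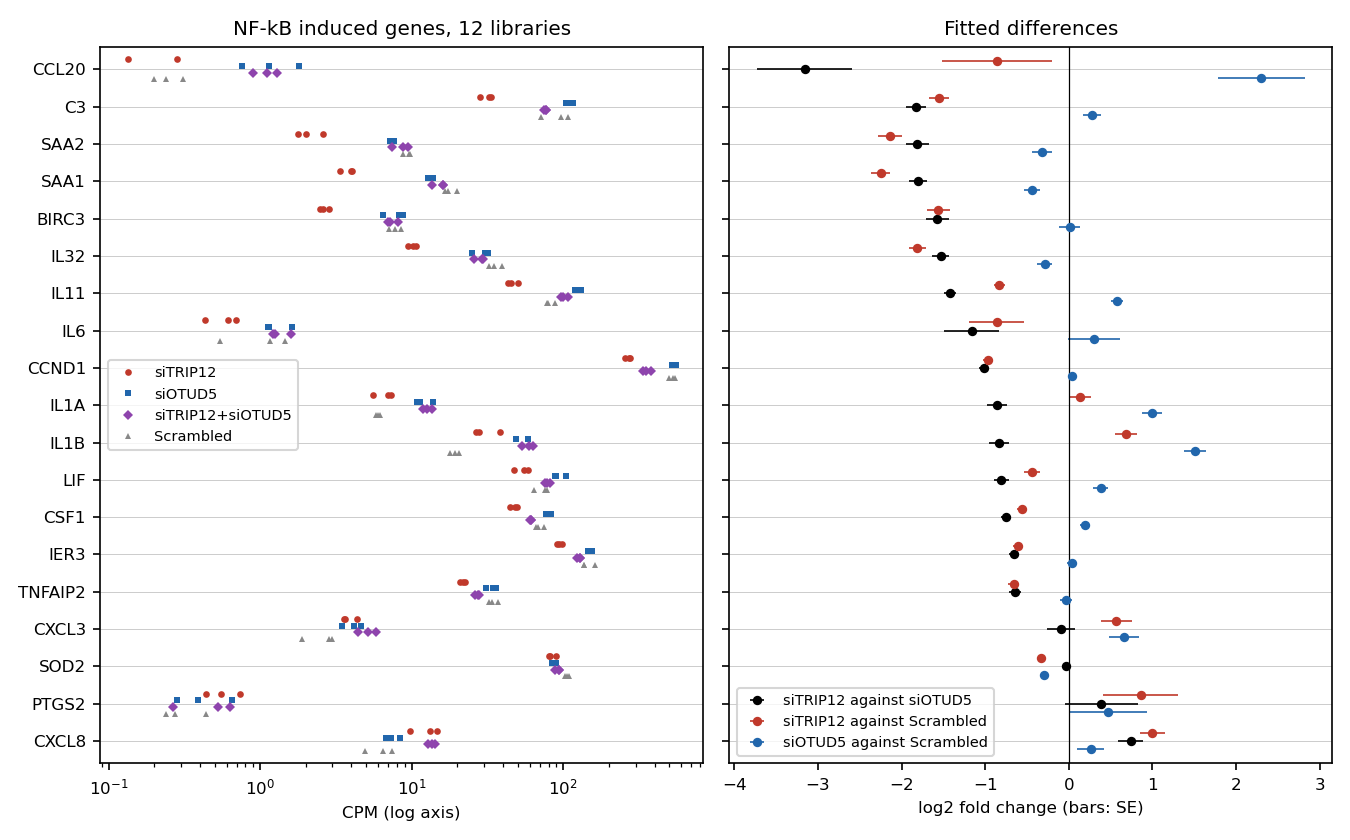
Left, CPM on a log axis in each of the 12 libraries for the 19 NF-kB induced genes tested, 1 point per library (a siTRIP12 library without a CCL20 read is not drawn). Right, their fitted log2 fold changes with SE bars for siTRIP12 against siOTUD5 and for each knockdown against Scrambled, where the black points lie left of 0 for 17 of 19 genes and CXCL8 lies to the right.

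Upstream signalling genes were called about as often as genes in general. Of 24 genes of TNF receptor and NF-kB signalling, 7 were lower and 1, CHUK, higher (33.3% called, against 29.8% of all genes), with a median of -0.09. TRAF1, an adaptor that NF-kB itself induces, had 6.73, 5.87 and 5.46 CPM in siTRIP12, against 17.5, 17.4 and 14.1 CPM in siOTUD5 (log2 -1.44 ± 0.11, adjusted p = 2.4e-08). MAP3K14, the kinase NIK that starts the non-canonical pathway, differed by -0.97 ± 0.08, and RELB and NFKB2, subunits of that pathway, by -0.71 ± 0.10 and -0.32 ± 0.05. Of its other genes in the list, CHUK differed by 0.18 ± 0.05, LTBR by 0.12 ± 0.05, TRAF2 by -0.07 ± 0.06, TRAF3 by -0.15 ± 0.07 and BIRC2 by -0.33 ± 0.07. Among 11 feedback inhibitors, 6 were lower and 2 higher (72.7% called), with a median of -0.32. NFKBIA, which encodes IkB-alpha, had 16.5, 15.5 and 16.6 CPM in siTRIP12, against 27.7, 29.8 and 28.3 CPM in siOTUD5 (log2 -0.82 ± 0.07, adjusted p = 2.2e-07). TNFAIP3, the ubiquitin-editing enzyme A20, differed by -0.86 ± 0.13, and NFKBIB, another IkB protein, was called higher (0.45 ± 0.07). Of 23 type I interferon response genes, 5 were lower and 1 higher (26.1% called, below the 29.8% of all genes, median -0.08), IRF1 and OAS3 among the lower at -0.87 ± 0.08 and -0.84 ± 0.11. Without siTRIP12 replicate 2, siOTUD5 replicate 1 or siOTUD5 replicate 3, 3 were lower.

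The stretches of 250 bases before the annotated start are shown for the 4 called NF-kB induced members with the smallest p that the RefSeq promoter table (GRCh38.p14) holds, to show what sequence stands upstream of genes that were lower together in siTRIP12. Capitals mark matches to the NF-kB motif, GGG and CC with any 5 bases between them, searched on both strands, with overlapping matches merged.
IL11, chr19:55370464-55370713, minus strand: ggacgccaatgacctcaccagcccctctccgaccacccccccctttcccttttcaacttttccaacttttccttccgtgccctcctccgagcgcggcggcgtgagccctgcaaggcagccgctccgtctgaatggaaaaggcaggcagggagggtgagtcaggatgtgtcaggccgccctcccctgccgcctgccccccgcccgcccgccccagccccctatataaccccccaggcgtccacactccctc
IL32, chr16:3065153-3065402, plus strand: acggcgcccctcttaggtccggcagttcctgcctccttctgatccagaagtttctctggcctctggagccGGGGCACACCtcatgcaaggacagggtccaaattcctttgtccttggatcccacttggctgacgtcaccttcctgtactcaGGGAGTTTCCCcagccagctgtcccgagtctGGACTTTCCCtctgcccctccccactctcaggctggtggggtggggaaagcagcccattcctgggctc
BIRC3, chr11:102317234-102317483, plus strand: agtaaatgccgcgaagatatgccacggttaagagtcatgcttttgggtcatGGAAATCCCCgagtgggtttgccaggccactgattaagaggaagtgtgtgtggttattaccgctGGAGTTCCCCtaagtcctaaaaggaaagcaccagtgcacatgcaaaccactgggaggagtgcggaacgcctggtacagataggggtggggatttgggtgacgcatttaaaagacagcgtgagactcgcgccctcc
TNFAIP2, chr14:103123211-103123460, plus strand: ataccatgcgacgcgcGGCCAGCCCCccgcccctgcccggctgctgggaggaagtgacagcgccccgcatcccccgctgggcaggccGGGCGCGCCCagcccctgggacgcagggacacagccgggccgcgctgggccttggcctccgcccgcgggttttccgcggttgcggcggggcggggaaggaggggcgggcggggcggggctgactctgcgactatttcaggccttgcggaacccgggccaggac
IL32 held 4 matches, which begin 180, 99, 98 and 68 bases before the start, and BIRC3 held 2, at 199 and 135 bases. TNFAIP2, which was at 20.9 to 22.5 CPM in siTRIP12, against 30.9 to 36.0 CPM in siOTUD5, held 3, of which those at 163 bases are the same bases read on both strands. No match is in the IL11 window. Such short motifs are common: 53.7% of 27305 promoter windows of this length and 67.5% of the 11893 of tested genes hold at least 1. Of the 8 members lower in siTRIP12 that the table holds, 5 (62.5%) have a match, a share close to that background. CCND1, SAA1, SAA2, CSF1, C3, IER3 and LIF were not matched to the table.

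In the integrin and matrix lists, more of the called members were lower than higher in siTRIP12. Of 15 integrin subunits tested, 7 were lower and none higher (46.7% called, against 29.8% of all genes, median -0.46). ITGA3, a laminin-binding subunit, had 562, 577 and 608 CPM in siTRIP12, against 1108, 1050 and 1031 CPM in siOTUD5 (log2 -0.87 ± 0.06, adjusted p = 2.4e-08), and ITGAV, the shared subunit of vitronectin receptors, differed by -0.67 ± 0.06. For ITGA3 the groups lay on opposite sides of Scrambled (log2 -0.52 in siTRIP12 and 0.35 in siOTUD5), whereas ITGAV was called in siTRIP12 (-0.74) and its siOTUD5 value was -0.07. Of 38 collagens and matrix glycoproteins, 14 were lower and 6 higher (52.6% called, median -0.16). COL7A1, the collagen of anchoring fibrils, had 6.95, 11 and 10 CPM in siTRIP12, against 25.9, 24.6 and 27.9 CPM in siOTUD5 (log2 -1.49 ± 0.12, adjusted p = 1.1e-07). SPARC, a collagen-binding glycoprotein, differed by -0.66 ± 0.05, and all 3 type VI collagen chains in the list, COL6A1, COL6A2 and COL6A3, were lower. The higher members were THBS1, LAMA4, FBN1, FBN2, PLOD1 and TGFBI, with THBS1, the adhesive glycoprotein thrombospondin-1, at 0.76 ± 0.08.

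Proteases and their activators split. Of 18 matrix metalloproteinases and inhibitors, 7 were lower and 3, MMP3, MMP1 and ADAMTS1, higher (55.6% called, against 29.8% of all genes). MMP14, the membrane-bound protease that activates MMP2, had 378, 394 and 433 CPM in siTRIP12, against 642, 584 and 598 CPM in siOTUD5 (log2 -0.60 ± 0.06, adjusted p = 3.5e-07). In the plasminogen activator system, 5 of 11 were lower and 1 higher (54.5% called). PLAU, or urokinase, had 207, 204 and 243 CPM in siTRIP12, against 480, 440 and 440 CPM in siOTUD5 (log2 -1.05 ± 0.06, adjusted p = 2.0e-09). S100A10, which helps to bind plasminogen at the cell surface, differed by -0.94 ± 0.08, and SERPINB2, an inhibitor of plasminogen activators, was the member called higher, at 0.47 ± 0.08. The TGF-beta pathway had 16 of 25 members lower and 1, BAMBI, higher (68.0% called, median -0.34). The ligand gene TGFB2 had 4.03, 4.32 and 3.06 CPM in siTRIP12, against 11, 8.82 and 10.4 CPM in siOTUD5 (log2 -1.40 ± 0.12, adjusted p = 1.8e-07), and the feedback genes SMAD6 and PMEPA1 differed by -0.96 ± 0.10 and -0.84 ± 0.08. With the genes left out whose 3′ UTR holds GTTCAGA or GTTTGAA, 15 members of this list remained tested, 6 lower and 1 higher, with a median of -0.20.

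**Figure D3:**
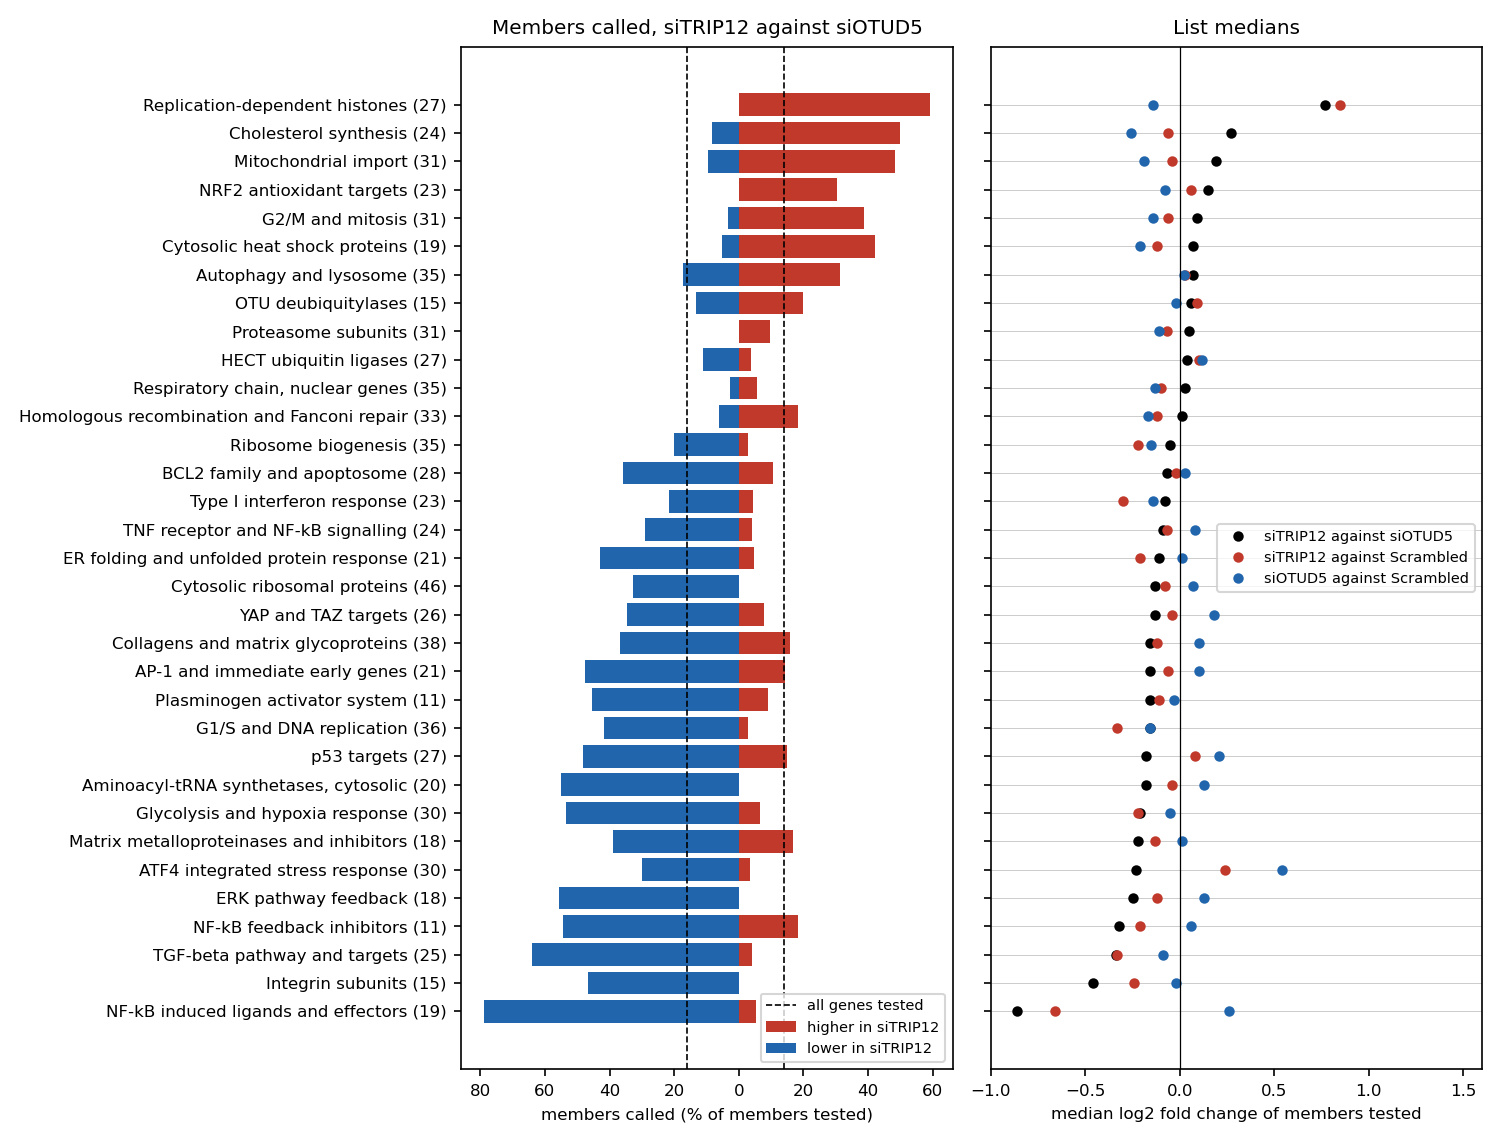
Left, members called higher or lower in siTRIP12 against siOTUD5 as a percent of the members tested, for the 33 lists other than cell type markers (number tested in parentheses), with dashed lines at the shares of all genes, 13.9% and 15.9%. Right, the median log2 fold change of the same members in the direct comparison and of each knockdown against Scrambled; the medians run from -0.86 for NF-kB induced genes to 0.77 for replication-dependent histones.

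Replication-dependent histone genes were the list with the highest median, 0.77. Of 46 listed, 27 were tested, and 16 were higher and none lower (59.3% called, against 29.8% of all genes). H2BC4, next to H2AC6 on chromosome 6, had 9.04, 7.70 and 7.31 CPM in siTRIP12, against 3.09, 2.80 and 2.68 CPM in siOTUD5 (log2 1.49 ± 0.13, adjusted p = 2.0e-07). H2BC12 had 298, 278 and 270 CPM in siTRIP12, against 160, 166 and 172 CPM in siOTUD5 (log2 0.76 ± 0.05, adjusted p = 8.8e-09). H2AC18 and H2AC19, near-identical copies that can share reads, both differed by 0.87 ± 0.08. Against Scrambled, 17 of the 27 were higher and none lower in siTRIP12 (14.5% and 17.4% of all genes), and none was higher and 2 lower in siOTUD5 (11.4% and 11.9% of all genes). Most of these transcripts lack a poly(A) tail, and the libraries were made from poly(A) RNA. The tested members have a median transcript length of 555 bases, so most stand in the shortest of 5 length classes. Levels showed a trend with length. The counts of this list with that trend taken out of the fit are given below, and the part of length was not otherwise tested.

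Cell cycle lists differed in direction. Of 36 G1/S and replication genes, 15 were lower and 1 higher (44.4% called, against 29.8% of all genes, median -0.16). MCM2 and MCM5, parts of the replicative helicase, differed by -0.31 ± 0.05 and -0.32 ± 0.05, and CDT1, which loads that helicase, by -0.49 ± 0.07. CCNE1, or cyclin E1, was the exception, with 14.8, 14.5 and 14.9 CPM in siTRIP12, against 10.6, 9.83 and 11.2 CPM in siOTUD5 (log2 0.48 ± 0.08, adjusted p = 3.0e-04). Without Scrambled replicate 3 in the fit, 23 members of this list were lower. Of 31 genes of G2/M and mitosis, 12 were higher and 1, TOP2A, lower (41.9% called). The higher ones changed by 0.17 to 0.42 on the log2 scale. PTTG1, or securin, had 79.9, 80.6 and 84.9 CPM in siTRIP12, against 59.0, 62.5 and 61.3 CPM in siOTUD5 (log2 0.42 ± 0.09, adjusted p = 0.00151). Against Scrambled, 28 of the 36 G1/S genes were lower in siTRIP12 and 16 in siOTUD5 (17.4% and 11.9% of all genes). Of the 31 G2/M genes, 9 were lower in siTRIP12 and 13 in siOTUD5. Both of these comparisons share the Scrambled libraries.

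FANCD2 stood out among 33 genes of homologous recombination and Fanconi repair. Of these, 6 were higher and 2 lower (24.2% called, below the 29.8% of all genes, median 0.01). The FANCD2 protein is ubiquitylated at sites of DNA crosslinks. FANCD2 had 43.3, 41.6 and 43.9 CPM in siTRIP12, against 20, 20 and 20.5 CPM in siOTUD5 (log2 1.09 ± 0.06, adjusted p = 1.0e-09), and 26.0 to 27.3 CPM with both siRNAs. Scrambled was at 35.0 to 38.2 CPM, so most of the gap was a lower level in siOTUD5 (log2 -0.85 against Scrambled). RAD54L, a motor protein of strand exchange, differed by 0.63 ± 0.06. The count of higher members was 3 without siTRIP12 replicate 1.

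ATF4 targets of the integrated stress response had called members in both knockdowns. Of 30 tested, 12 were higher in siTRIP12 than in Scrambled (14.5% of all genes were) and 22 in siOTUD5 (11.4% of all genes), with none lower in either. In the direct comparison 9 were lower and 1, ATF3, higher (median -0.23), in all 33.3% called, near the 29.8% of all genes. VLDLR, a lipoprotein receptor, had 28.7, 32.6 and 35.2 CPM in siTRIP12, against 60.2, 48.4 and 48.3 CPM in siOTUD5 (log2 -0.70 ± 0.09, adjusted p = 2.0e-05). CBS, an enzyme of transsulfuration, differed by -0.80 ± 0.15, and SESN2, a stress-induced inhibitor of mTORC1, by -0.66 ± 0.08. In siTRIP12 replicate 3 both VLDLR and CBS were at their highest within the group, and without that library 18 members were lower. Leaving out any other library of these groups gave 6 to 10. Of 20 cytosolic aminoacyl-tRNA synthetases, 11 were lower and none higher (55.0% called, median -0.18). GARS1 differed by -0.35 ± 0.08 and LARS1 by -0.33 ± 0.05. Leaving out siTRIP12 replicate 1, siTRIP12 replicate 2 or siOTUD5 replicate 1 gave 7.

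The p53 targets held called members in both directions. Of 27 tested, 13 were lower and 4 higher (63.0% called, against 29.8% of all genes, median -0.18). Against Scrambled, 9 were higher and 6 lower in siTRIP12 (14.5% and 17.4% of all genes). In siOTUD5, 17 were higher and 1 lower (11.4% and 11.9% of all genes). BTG2, an antiproliferative gene, had 41.6, 42.4 and 43.9 CPM in siTRIP12, against 70.2, 76.3 and 71.8 CPM in siOTUD5 (log2 -0.77 ± 0.06, adjusted p = 1.6e-08). DDB2, a sensor of ultraviolet damage, differed by -0.49 ± 0.05. The members called higher were SESN1, GDF15, GADD45A and PLK2. SESN1, a paralog of SESN2, had 53.9, 53.7 and 50.3 CPM in siTRIP12, against 28.0, 28.4 and 26.8 CPM in siOTUD5 (log2 0.92 ± 0.07, adjusted p = 4.7e-08), the opposite direction to SESN2.

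In the cholesterol synthesis and cytosolic heat shock lists, more members were called higher than lower. Of 24 genes of cholesterol synthesis, 12 were higher and 2 lower (58.3% called, against 29.8% of all genes, median 0.27). Against Scrambled, none was higher and 6 were lower in siTRIP12 (14.5% and 17.4% of all genes). In siOTUD5, 1 was higher and 17 lower (11.4% and 11.9% of all genes). EBP, a sterol isomerase, had 69.3, 60.6 and 70.2 CPM in siTRIP12, against 48.1, 46.3 and 43.6 CPM in siOTUD5 (log2 0.54 ± 0.07, adjusted p = 1.5e-05). INSIG1, which retains the regulator SCAP in the endoplasmic reticulum, differed by 0.50 ± 0.06. Of 19 cytosolic heat shock genes, 8 were higher and 1, BAG3, lower (47.4% called, median 0.07). Against Scrambled, 14 of these were lower in siOTUD5 (11.9% of all genes were). HSP90AB1 had 2614, 2392 and 2428 CPM in siTRIP12, against 1993, 2045 and 1977 CPM in siOTUD5 (log2 0.31 ± 0.06, adjusted p = 5.8e-04). Of 23 NRF2 targets, 7 were higher and none lower (median 0.15), in all 30.4% called, near the 29.8% of all genes, with FTL, the ferritin light chain, at 0.45 ± 0.06. In the endoplasmic reticulum list 9 of 21 were lower and 1 higher (47.6% called). CALR, or calreticulin, differed by -0.29 ± 0.05.

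TOMM22 belongs to a list of 31 mitochondrial import genes. Of these, 15 were higher and 3 lower in siTRIP12 (58.1% called, against 29.8% of all genes, median 0.19), and all but TOMM22 differed by at most 0.40. MTX2, an outer-membrane assembly factor, and TOMM5, a small TOM subunit, differed by 0.40 ± 0.07 and 0.38 ± 0.07. Against Scrambled, 14 were lower in siOTUD5 and 8 in siTRIP12 (11.9% and 17.4% of all genes). Nuclear genes of the respiratory chain were near the median of all genes, with 2 of 35 higher, NDUFA8 and UQCRFS1, and 1, UQCRC1, lower (8.57% called, against 29.8% of all genes).

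RNAs of the mitochondrial genome, looked at after their values were seen, differed by class. The 21 mitochondrial tRNAs tested summed to 49.7, 69.1 and 63.9 CPM in siTRIP12, against 104, 102 and 111 CPM in siOTUD5. Of these, 12 were called lower and none higher (57.1% called, against 29.8% of all genes, median -0.64). TRNH and TRNS2, among the lower, rest on few reads, with means of 13.7 and 9.67 in siOTUD5. TRNF and TRNV, which flank the RNR1 gene, differed by -1.80 ± 0.12 (adjusted p = 4.5e-09) and -1.87 ± 0.16 (adjusted p = 9.4e-08). Both rRNAs were lower, RNR1 by -0.70 ± 0.10 (adjusted p = 9.4e-05) and RNR2 by -0.69 ± 0.08 (adjusted p = 5.5e-06). The 13 mRNAs, which are cut from the same long precursors, had a median of 0.08, and ND6 alone was called (log2 -0.37 ± 0.07, adjusted p = 5.8e-04). The summed mRNAs overlapped between groups, with siTRIP12 replicate 1 low at 29385 CPM, against 44293 and 42272 CPM in the other siTRIP12 libraries and 36551 to 39250 CPM in siOTUD5. The siTRIP12+siOTUD5 libraries held 97.9 to 118 CPM of the tRNAs, beside the siOTUD5 level. The libraries were made from poly(A) RNA, and mitochondrial tRNAs carry no long poly(A) tail.

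**Figure D4:**
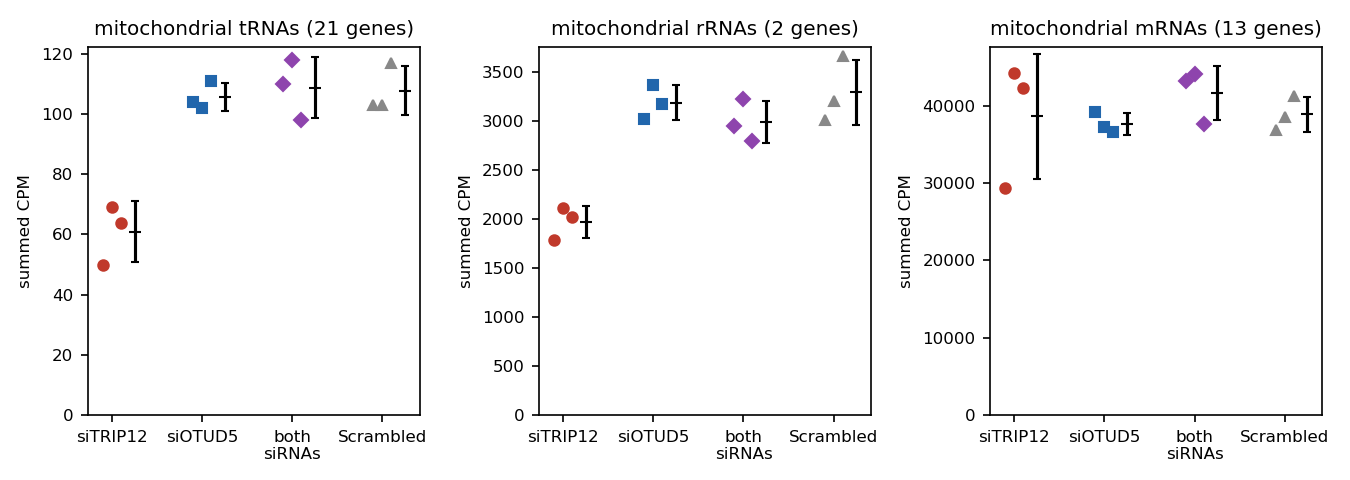
Summed CPM of the mitochondrial tRNAs, rRNAs and mRNAs tested, 1 point per library, with the group mean and SD beside the points and axes from 0. The siTRIP12 libraries lie below all others for tRNAs and rRNAs (49.7 to 69.1 and 1788 to 2109 CPM) and overlap the siOTUD5 libraries for mRNAs.

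The ERK, AP-1 and YAP lists held called members in unequal numbers each way. Of 18 ERK feedback genes, 10 were lower and none higher (55.6% called, against 29.8% of all genes, median -0.25). DUSP7, a phosphatase of ERK, had 31.4, 30.5 and 35.2 CPM in siTRIP12, against 55.3, 55.6 and 54.6 CPM in siOTUD5. Its difference was log2 -0.77 ± 0.06 (adjusted p = 6.5e-08). Of 21 AP-1 and immediate early genes, 10 were lower and 3 higher (61.9% called). FOSL2 and FOSL1, subunits of AP-1, differed by -0.69 ± 0.07 and -0.48 ± 0.05. The higher members were FOS, FOSB and EGR1, immediate early genes. YAP and TAZ targets split: 9 of 26 were lower and 2, CCN2 and CRIM1, higher (42.3% called). NUAK2, a kinase, differed by -1.14 ± 0.09 and AJUBA, a LIM-domain scaffold, by -1.0 ± 0.05. CCN2, the connective tissue growth factor, had 52.0, 49.8 and 48.6 CPM in siTRIP12, against 29.7, 28.2 and 27.3 CPM in siOTUD5 (log2 0.82 ± 0.07, adjusted p = 6.4e-08), so members of 1 list differed in opposite directions. Of 30 glycolysis and hypoxia genes, 16 were lower and 2, ALDOC and PFKFB3, higher (median -0.21). VEGFA, the vascular growth factor, had 40.8, 53.3 and 52.1 CPM in siTRIP12, against 96.2, 86.4 and 91.0 CPM in siOTUD5 (log2 -0.90 ± 0.08, adjusted p = 4.6e-07).

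Among 28 genes of the BCL2 family and the apoptosome, 10 were lower and 3, BAD, BCL2L11 and CFLAR, higher (46.4% called, median -0.07). Over all genes tested, 29.8% were called. MCL1, which restrains apoptosis, had 291, 305 and 309 CPM in siTRIP12, against 494, 473 and 481 CPM in siOTUD5 (log2 -0.68 ± 0.05, adjusted p = 2.2e-08), and the siTRIP12 value against Scrambled was -0.06 and not called. CYCS, which encodes cytochrome c, differed by -0.73 ± 0.07. Autophagy and lysosome genes had 11 of 35 higher and 6 lower (48.6% called, median 0.07). GABARAPL1, an ATG8-family protein of the autophagosome, had 32.9, 32.7 and 31.0 CPM in siTRIP12, against 18.6, 17.9 and 18.2 CPM in siOTUD5 (log2 0.82 ± 0.07, adjusted p = 9.7e-08), while SQSTM1, the cargo receptor p62, differed by -0.32 ± 0.05. The count of higher members was 7 without siTRIP12 replicate 3, and 6, 5 and 6 without siOTUD5 replicates 1, 2 and 3.

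HECT ligases were called less often than genes in general, and OTU deubiquitylases about as often, with both targets counted. Of 27 HECT ligases, 14.8% were called, against 29.8% of all genes. TRIP12 itself, NEDD4 and NEDD4L were the 3 lower, and HERC3 was the 1 higher (log2 0.48 ± 0.08). Of 15 OTU deubiquitylases, 3 were higher, OTUD5 among them, and 2 lower (33.3% called, near the 29.8% of all genes). OTUB2 was at 6.01, 5.90 and 5.69 CPM in siTRIP12, against 9.31, 10.1 and 9.87 CPM in siOTUD5 (log2 -0.73 ± 0.10, adjusted p = 2.9e-05). Of 31 proteasome subunits, 3 were higher and none lower (9.68% called), and the count was 0 or 1 without siTRIP12 replicate 1, siTRIP12 replicate 3, siOTUD5 replicate 2 or siOTUD5 replicate 3. Ribosomal protein genes had 15 of 46 lower and none higher (median -0.13), 32.6% called beside 29.8% of all genes, with RPS3A at -0.62 ± 0.09. That count was 9, 8, 6 and 8 without siTRIP12 replicate 1, siTRIP12 replicate 2, siOTUD5 replicate 1 and siOTUD5 replicate 3. Of 35 ribosome biogenesis genes, 7 were lower and 1 higher (22.9% called, below the 29.8% of all genes, median -0.05). NOP56, a box C/D snoRNP protein, was among the lower at -0.41 ± 0.05.

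The lncRNA genes were called higher about as often as genes in general, and called lower less often. Of 2078 lncRNA genes tested, 291 were higher and 72 lower in siTRIP12 (17.5% called, median 0.19). Of 12901 protein-coding genes, 1872 were higher and 2461 lower (33.6% called, median -0.01). Over all genes tested, 13.9% were higher and 15.9% lower, 29.8% in all. UCA1, a lncRNA first described in bladder cancer (chromosome 19, 15828947 to 15836321), had 176, 152 and 127 CPM in siTRIP12, against 44.3, 57.1 and 60 CPM in siOTUD5 (log2 1.5 ± 0.12, adjusted p = 1.5e-06). OVAAL had 35.4, 33.6 and 34.9 CPM in siTRIP12, against 12.6, 11.7 and 13.1 CPM in siOTUD5 (log2 1.47 ± 0.07, adjusted p = 1.3e-10). LOC105379051 on chromosome 5 differed most among the lncRNAs with at least 100 reads, by 2.99 ± 0.29 (adjusted p = 6.3e-07). These examples were chosen after their values were seen, and the strand setting of the counting is not given, so antisense genes are not read separately from their partners here.

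Some of the differences went with transcript length. Genes were split into 5 classes of equal size by a transcript length taken from the ratio of count to FPKM. From the shortest to the longest class, the share called higher in siTRIP12 was 16.4%, 16.2%, 13.1%, 12% and 11.8%, and the share called lower 5.93%, 12.4%, 18.7%, 22.8% and 19.6%. The median log2 fold change was 0.12 in the shortest class and -0.02 in the longest. Within libraries, Spearman's rho across genes between length and the deviation from the mean of all libraries was -0.02, -0.05 and -0.22 in siTRIP12, against 0.08, 0.20 and 0.09 in siOTUD5. It was -0.31 in Scrambled replicate 3, which enters the direct comparison through the shared estimate of the spread, and without that library 5986 genes were called. The part of length in single differences was not tested. With the trend taken out of the fit, the histone list had 14 members higher and none lower (median 0.65), the NF-kB induced list 15 lower and 1 higher (median -0.89), and the integrins 7 lower (median -0.41). The ribosomal protein list then had 33 lower.

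**Figure D5:**
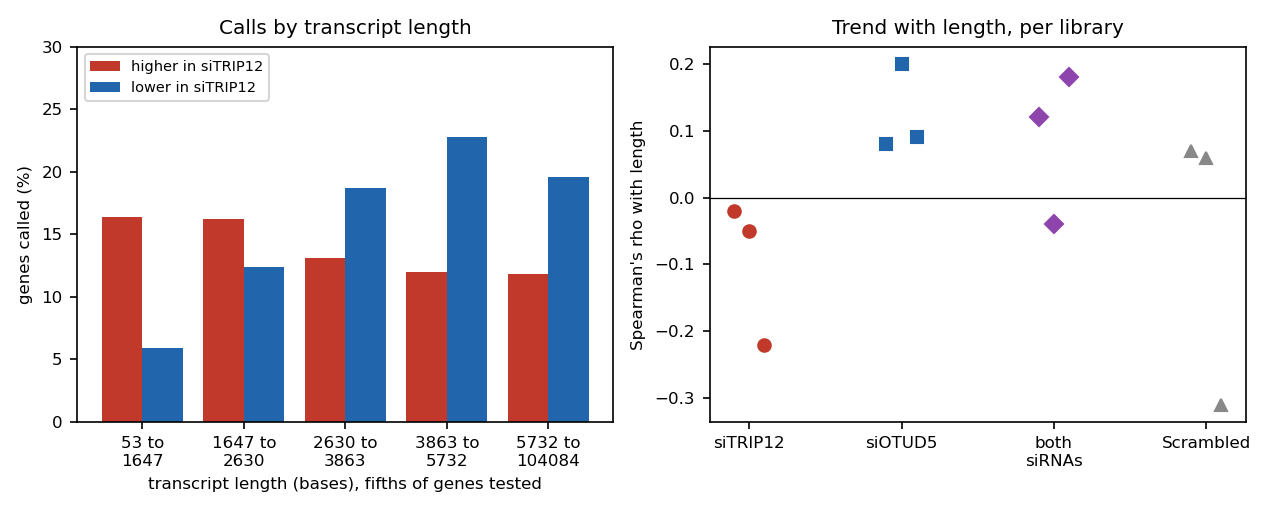
Left, percent of genes called higher or lower in siTRIP12 against siOTUD5 in each of 5 transcript length classes (bases). Right, Spearman's rho across genes between length and each library's deviation, 1 point per library; all 3 siTRIP12 libraries are below 0, all 3 siOTUD5 libraries above it, and Scrambled replicate 3 is lowest at -0.31.

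Shares called also differed for genes with the 3′ UTR sequence GTTCAGA, and less so for genes with GTTTGAA alone. In earlier results of these data GTTCAGA went with lower levels in siTRIP12, and GTTTGAA with lower levels in siOTUD5. The sequences were thus taken from the same data, so the shares here describe them and give no separate support. Of 1029 genes with GTTCAGA alone, 9.91% were higher and 28.5% lower in siTRIP12 (median -0.09). Among 1735 genes with GTTTGAA alone the shares were 17.1% and 16.3% (median 0.02), and among 9439 genes with neither 14.8% and 18.4%. The 541 genes with both had 12% higher and 26.2% lower. Median 3′ UTR lengths were 2678 bases with GTTCAGA alone, 2715 with GTTTGAA alone, 4825 with both and 994 with neither, and the part of UTR length in these shares was not tested. COL6A3 and ZNF582 hold 1 GTTCAGA and PLXNA4 holds 2, while ESM1 holds 1 GTTTGAA and KYNU holds 2 beside 1 GTTCAGA. The other named rises and falls, TOMM22 aside, hold neither. The part of these sequences in single differences was not tested.

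Mesenchymal markers summed to far more than the epithelial, leukocyte, or endothelial and muscle markers in every group. The 20 mesenchymal markers, none of them at 0, summed to 5879 to 6279 CPM in siTRIP12, against 6931 to 7183 CPM in siOTUD5. Of the 19 tested, 9 were lower and 1, ANXA1, higher (52.6% called, against 29.8% of all genes). CD44, the hyaluronan receptor, differed by -0.67 ± 0.05. SNAI2, a transcription factor of mesenchymal cells, had 8.69, 6.92 and 8.29 CPM in siTRIP12, against 21.3, 22.8 and 22.7 CPM in siOTUD5 (log2 -1.48 ± 0.09, adjusted p = 4.3e-09). Epithelial markers summed to 27.9 to 32.1 CPM in siTRIP12, against 21 to 22 CPM in siOTUD5, with 8 of 22 at 0 in every library and KRT15 the 1 called. Leukocyte markers summed to 138 to 156 CPM in siTRIP12, against 93.2 to 106 CPM in siOTUD5, nearly all of it CD68 and CSF1R, with 3 of 20 at 0. Endothelial and muscle markers summed to 230 to 248 CPM in siTRIP12, against 248 to 262 CPM in siOTUD5, 7 of 20 at 0. In bulk RNA, fewer cells with a transcript and less of it per cell cannot be told apart.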

How the data were processed

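The authors' deposited table gives, per gene and library, whole-number read counts, with FPKM and TPM values made by the authors beside them. Per the submitters' processing notes, HISAT2, StringTie and GRCh38 were used, without versions, roles or order; per the labels, libraries were stranded and made from poly(A) RNA. Whether reads or fragments were counted is not stated (of 71969 values of 1 to 20, 51.1% are even). All 12 libraries were mapped by column name. Of 46427 gene IDs, 44698 were in the RefSeq gene table (GRCh38.p14) used for names and coordinates.

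The counts went through edgeR 4.0.16 under R 4.3.3: filterByExpr (30144 genes removed), TMM scaling, CPM from the TMM-scaled totals, and a robust quasi-likelihood fit of 4 group means over the 12 libraries (biological coefficient of variation 0.0822, with 8 degrees of freedom left), with F-tests and Benjamini-Hochberg adjustment over all genes. The steps were tested on simulated data. Transcript length was taken as count over FPKM, scaled to the library. The deposited TPM values were read and their means tabulated; no test used them. Promoter sequences are RefSeq's, and 3′ UTRs are the longest per gene in GENCODE 29.

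The comparison, the 37 lists (986 genes) and the naming rule were chosen with earlier results of these data known. The rule names the 12 largest rises and 12 largest falls among called protein-coding genes with at least 100 reads on average in the higher group and no overlap of libraries, up to 4 members per list with the smallest p, and genes of the same locus or family. Other list members are named to complete a count of exceptions or to show a contrast, and these were chosen after their values were seen. Lists are described by counts and medians, with no list test. Totals of 37912312 to 43881471 reads per library limit the precision of genes under about 1 CPM, whose values rest on few reads.

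Alternatives tried were scaling by the size factors of DESeq2 or by upper quartiles, testing every gene with a read or those averaging 50 reads, blocking by replicate number, glmTreat against a fold of 1.5, limma-voom (limma 3.58.1), DESeq2 1.42.0, only the groups compared, libraries left out, and a length trend in the fit. A fit summary without the genes whose 3′ UTR holds a 7-base site was added after the data were seen. Deposited columns without a sample numbered 0. Some results are not reported here.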

Additional observations from a re-analysis of the deposited data

How the results depend on the processing

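Across the alternatives to the fit of siTRIP12 against siOTUD5, no gene called both as reported and under an alternative changed sign, and all 22 named genes besides the targets kept their direction and their call wherever they were tested. The count of 4848 calls became 281 (120 higher, 161 lower, 201 of them over 2-fold) with glmTreat against a fold of 1.5. It was 3208 (1422 higher) without both siTRIP12 replicate 3 and siOTUD5 replicate 2, whose length trends are the most opposed. Requiring a mean of 50 reads left 229 genes over 2-fold, since fewer low genes are tested. Leaving out 1 library gave 3741 to 4149 calls, with 1689 to 1881 higher, 2052 to 2268 lower and 404 to 433 over 2-fold. Against Scrambled, siTRIP12 then had 4140 to 5249 calls and siOTUD5 2546 to 3711, of which 1275 to 1891 lower (1275 without siOTUD5 replicate 3). Upper-quartile factors turned the share of higher calls to 56.0%, against 46.7%, and moved the median of all genes to 0.05. Replicate numbers did not pair the libraries: same-numbered siTRIP12 and siOTUD5 libraries had correlations of 0.00 to 0.04 in their deviations from the group means, and the fit with a replicate block gave 4654 calls. The balance of a list turned in 6 cases: the metalloproteinase list had 1 lower and 2 higher under glmTreat. Without siTRIP12 replicate 3 and siOTUD5 replicate 2, the respiratory chain had 1 higher and 2 lower and autophagy 4 higher and 5 lower. With the length trend in the fit, proteasome subunits had 2 higher and 6 lower, HECT ligases 3 lower and 5 higher, and the respiratory chain 3 higher and 8 lower. The cause of these turns was not tested. In 80 further cases a list's count moved by over 1.5 times without turning. Depth limits genes near 1 CPM, such as CCL20, IL6 and FPR2.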
